A study of Mus musculus with 11 samples.

Results

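Levels of 36 genes of the p53 pathway and of the apoptosis machinery were measured by RNA-Seq in cerebellar granule cell precursors (GCps) with and without a deletion of Chd7, which encodes a chromatin remodeler. The genes were chosen by name, as p53 itself, its relatives and regulators, targets of p53, and the BCL2 family and caspase genes that carry out cell death, because of the question of GCp survival in these mice. The rule that picked them used names and no threshold on measured values. The deposited tables list 38924 genes, of which 16436 had enough reads to be tested, and all 36 chosen genes were among them.

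All animals were of the C57Bl/6J strain at postnatal day 7. The 2 control libraries came from pups labelled Chd7flox/+, without Cre, although the extraction notes of the submitters give the controls 2 floxed alleles. The 2 cko libraries came from Math1cre;Chd7flox/flox pups, in which a Math1-driven Cre transgene deletes Chd7 in the granule cell lineage. Lobules IX and X, the cerebellar lobules where this transgene acts least, were removed, cerebella of a genotype were pooled, and GCps were purified on a Percoll gradient. No source says that the libraries of a genotype came from separate litters or pools, so a p-value reflects the spread from library to library, which may be technical within the control pair.

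p53 is a transcription factor that is kept low by MDM2 and MDM4 and accumulates after DNA damage and other stress. Its targets include genes that stop the cell cycle, genes that limit oxidative and metabolic stress, and genes that start apoptosis. In the mitochondrial pathway, BH3-only proteins such as PUMA and NOXA bind the anti-apoptotic BCL2 proteins, BAX and BAK then open the outer mitochondrial membrane, and the released cytochrome c assembles with APAF1 and caspase-9 into the apoptosome. GCps divide rapidly in the outer layer of the postnatal cerebellum, and loss of p53 restraint in this lineage is a known step in medulloblastoma.

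Control replicate 1 held 77346481 counted reads and control replicate 2 held 61836588, against 73480074 and 62437759 in the cko pair. Values are given as CPM (read counts of a gene scaled to a common library size), normalised by the trimmed mean of M values (TMM), and levels of different genes are compared only as CPM per kb of exon. The whole-gene level of Chd7, whose floxed part cannot be read from a count over all exons, was 322 and 319 CPM in controls and 392 and 355 CPM in cko libraries, so it gives no check of the deletion. Markers of the granule lineage, Atoh1, Barhl1, Pax6, Zic1, Zic2, Neurod1, Mki67 and Gli1, were detected in each library, with summed levels of 4794 and 4844 CPM in controls, 4141 CPM in cko replicate 1 and 4697 CPM in cko replicate 2. These markers did not move together. Neurod1, a gene of granule cell differentiation, was at 1051 and 999 CPM in controls and at 475 and 780 CPM in cko replicates 1 and 2 (log2 fold change -0.71, adjusted p 0.268 in edgeR and 0.0211 in DESeq2). The log2 fold change was -0.30 for Pax6 and 0.38 for the proliferation marker Mki67, with edgeR adjusted p of 0.239 and 0.285, and the part of this difference in the values of the 36 genes was not tested. cko replicate 1 stood apart from the other libraries. It was the only one with Xist, the RNA of the inactive X chromosome, at 793 CPM against at most 0.548, and the only one with no read of the Y-linked gene Ddx3y, at 63.7 to 69.1 CPM elsewhere. Its summed level of 10 immediate early and dissociation stress genes, such as Fos, Jun and Egr1, was 1592 CPM against 2953 to 3179 CPM in the other libraries. The cko libraries thus held RNA of different animals, and sex composition and replicate number cannot be told apart in the cko group, and results are also given without this library where it decides a value.

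Levels spread over more than 3 orders of magnitude in control GCps. Mcl1, an anti-apoptotic BCL2 family gene, had the highest level of the 36 genes at 67.4 ± 1.26 CPM per kb of exon (SD, n = 2 libraries). It was followed by Btg2, an antiproliferative p53 target, at 50.1 ± 0.648, by the apoptotic effector Bax at 45.9 ± 10.7, and by the anti-apoptotic Bcl2l1, which encodes BCL-XL, at 38.6 ± 0.672 CPM per kb. Cycs, which encodes cytochrome c, reached 36.4 ± 5.01 and Trp53, the mouse gene for p53, 34.3 ± 2.24 CPM per kb. Mcl1 lay above Btg2 in both control libraries. From Btg2 downward each gene overlapped with the next in this order, and Bax alone ranged from 38.4 to 53.5 CPM per kb.

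At the other end, the death receptor gene Fas was barely detected at 0.0374 ± 0.0188 CPM per kb, with 8 and 3 reads in the control and 12 and 11 reads in the cko libraries. The BH3-only gene Hrk, at 0.418 ± 0.0246, Phlda3, an inhibitor of AKT signalling, at 0.690 ± 0.242, and Perp, which encodes a membrane protein of desmosomes and of p53-dependent death, at 0.907 ± 0.110, were the other genes under 1 CPM per kb in controls. The remaining genes lay between 1.25 CPM per kb for Bcl2 and 17.7 CPM per kb for Gtse1, which encodes a mitotic protein that holds p53 in the cytoplasm.

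**Figure D1:**
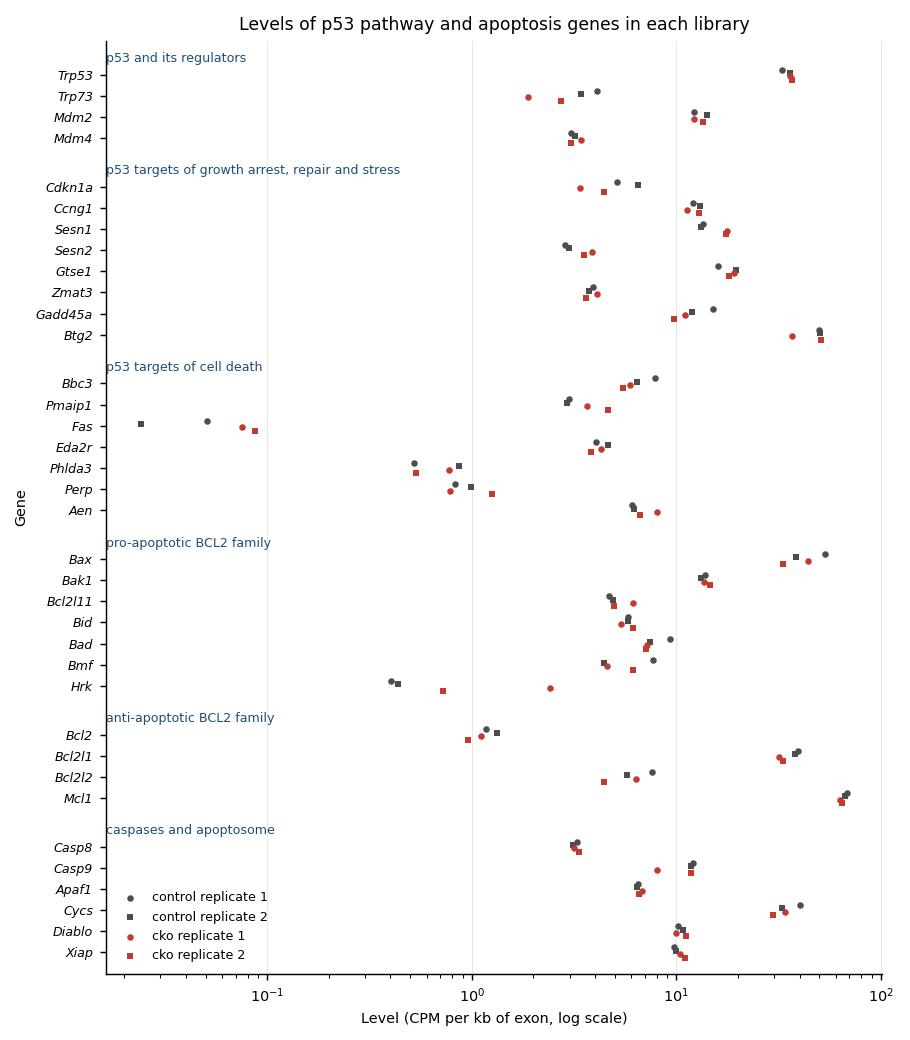
Level of each of the 36 genes in CPM per kb of exon on a log axis, with 1 point for each of 2 control libraries (grey) and 2 cko libraries (red) and genes grouped by role. Mcl1 stood highest at 67.4 and Fas lowest at 0.0374 CPM per kb in controls, and for most genes the 4 points lie close together.

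No gene of the 36 passed an adjusted p of 0.05 between cko and control GCps in edgeR's quasi-likelihood test, in which 1.58% of all tested genes were called (0.809% higher and 0.773% lower in cko). DESeq2, which called 5.60% of the genes it tested, called 2 of the 36, Sesn1 and Trp73. At an unadjusted p under 0.05, edgeR gave 8 of the 36 genes (22.2%), against 13.6% of all tested genes. Without cko replicate 1, edgeR again called none of the 36, with 1.36% of all tested genes called, and gave 6 at an unadjusted p under 0.05, against 11.4% of all tested genes. Of the 8 genes, 4 had higher values in cko GCps (Sesn1, Sesn2, Pmaip1 and Hrk), as did 7.36% of all tested genes. The other 4 had lower values (Trp73, Cdkn1a, Gadd45a and Bcl2l1), as did 6.21% of all tested genes. The median log2 fold change of the 36 genes was -0.03, beside 0.00 for all tested genes to 2 decimals, with 17 genes above and 19 below 0. The 2 cko libraries lay above both control libraries for 9 genes and below both for 9, so that 18 of 36 did not overlap, against 43.9% of all tested genes (22.7% above and 21.2% below). In bulk RNA, fewer cells that express a gene and less RNA of it per cell cannot be told apart.

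**Figure D2:**
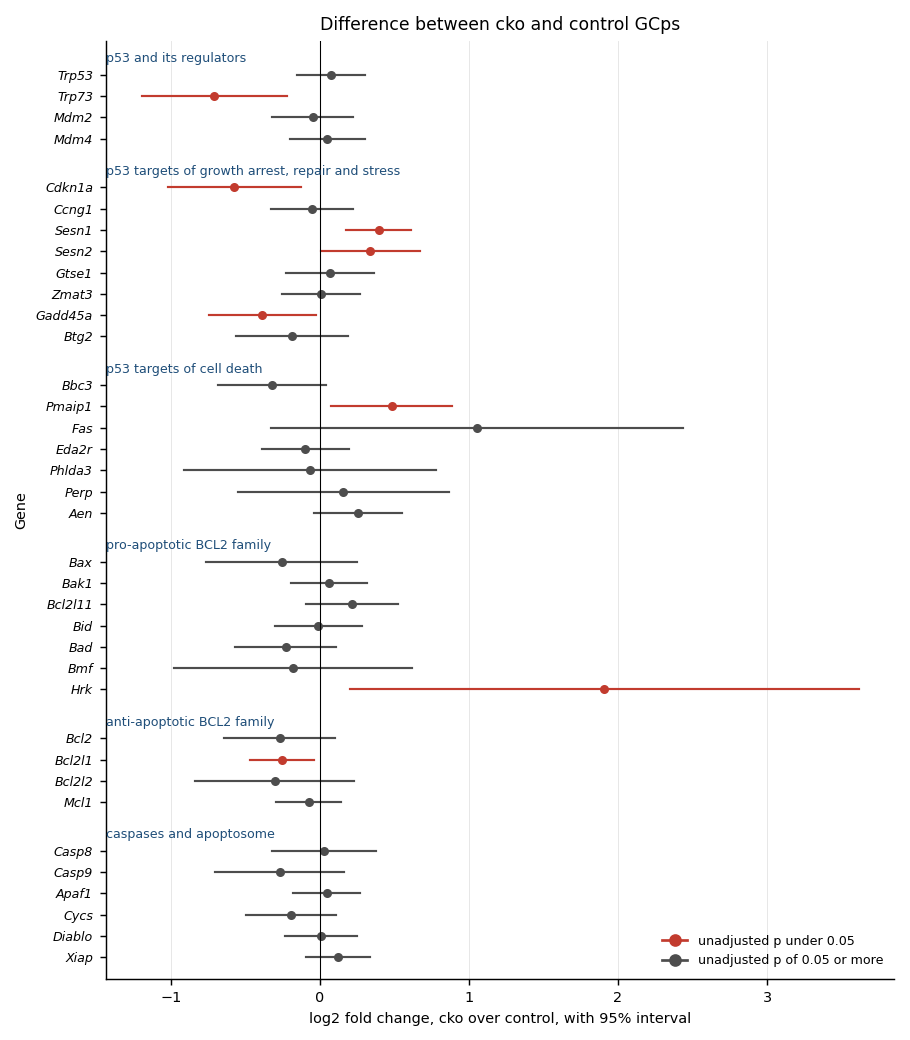
Fitted log2 fold change of cko over control for each of the 36 genes, with its 95% interval, grouped by role and red where the unadjusted p was under 0.05. Sesn1, Sesn2, Pmaip1 and Hrk lie to the right and Trp73, Cdkn1a, Gadd45a and Bcl2l1 to the left of 0, and the intervals of the other 28 genes include 0.

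The level of Trp53 itself barely differed between the genotypes. It was measured at 132 and 145 CPM in the controls and at 145 and 148 CPM in cko libraries, a log2 fold change of 0.08 with a 95% interval from -0.15 to 0.31. Its mRNA gives no measure of p53 protein, which is mainly set by degradation. Mdm2, the ubiquitin ligase that degrades p53 and is itself a p53 target, ranged from 62.2 to 72.0 CPM in controls and from 61.8 to 68.2 CPM in cko libraries, with a log2 fold change of -0.05 (95% interval -0.32 to 0.23). Mdm4, which binds and masks p53, ranged from 45.1 to 47.3 and from 45.4 to 50.4 CPM, with a log2 fold change of 0.05 (95% interval -0.20 to 0.30).

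Trp73 (ENSMUSG00000029026, chr4:154056253-154140208, GRCm38) encodes p73, a p53 relative with pro-apoptotic and truncated anti-apoptotic forms that is best known in brain for its role in Cajal-Retzius neurons and neural progenitors. It was measured at 22.7 and 18.8 CPM in controls and at 10.4 and 15.1 CPM in cko replicates 1 and 2. Both cko libraries lay below both controls, and cko replicate 1 was the lowest. The log2 fold change was -0.71 (SE 0.20, 95% interval -1.196 to -0.22), the lowest of the 36 genes, with an edgeR adjusted p of 0.179 and a DESeq2 adjusted p of 0.0288. Without cko replicate 2 the log2 fold change was -0.998 with an edgeR adjusted p of 0.0316, and without cko replicate 1 it was -0.45 with an adjusted p of 0.336. A gene count cannot tell the long forms from the truncated ones, and 5.06% of the exonic length of Trp73 overlaps the antisense gene Trp73os, whose reads cannot be told apart without the strand setting of the counting.

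Among the p53 targets of growth arrest, repair and stress, 2 of 8 lay higher and 2 lower in cko GCps at an unadjusted p under 0.05. Of all tested genes, 7.36% lay higher and 6.21% lower at this p. The median log2 fold change of the 8 was -0.02. Genes of the same list thus lay on both sides of 0. To show what the promoters of these targets hold, the window from 250 bases before to 50 bases after each RefSeq start site (GRCm38.p6) was searched for exact matches to the p53 half-site consensus, a 10-base motif that is its own reverse complement, so that 1 search covers both strands. RefSeq windows, 49 in all, were matched for 33 of the 36 genes and missing for Zmat3, Pmaip1 and Perp. A gene with several start sites has several windows, and a match in any of them counted. A match was found for 10 of the 33 genes (30.3%), namely Trp53, Mdm2, Cdkn1a, Ccng1, Sesn1, Gtse1, Gadd45a, Aen, Bax and Bmf. The share was 9.55% of 27025 genes with such windows, and 8.36% of all windows. These shares are not fully alike, since the 33 genes had 49 windows and the 27025 genes had 32851. Many of the 36 genes were also listed because they are known p53 targets, so a higher share is no independent result. By exact match, only Cdkn1a of these 33 genes held 2 half-sites within 13 bases of each other. Counted by window and not by gene, 0.0731% of all 32851 windows held such a pair. Matches of genes described below are printed 5′ to 3′ on the strand of the gene with the half-sites in capitals:
Cdkn1a: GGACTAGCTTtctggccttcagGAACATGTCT
Sesn1: tggccttcAAGCTTGTTTttgctggc
Gadd45a: ttggctgaGGGCTAGCCCcatatctc
Bax: catatcccAGGCAAGCTTtgaacttg
They lie at chr17:29090906-29090937 on the plus strand, chr10:41887258-41887283 on the plus strand, chr6:67037430-67037455 on the minus strand and chr7:45467082-45467107 on the minus strand. The half-sites start 73 and 51 bases before a start site for Cdkn1a, 173 for Sesn1, 40 for Gadd45a and 201 for Bax. For Sesn1 this start site is internal, since the gene itself begins at chr10:41809935. These are letter matches, not measured binding sites, and many known p53 sites lie outside such windows or depart from the consensus. Near matches were not counted, also next to a printed half-site, so the printed pair need not be the p53 element of Cdkn1a.

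Cdkn1a (ENSMUSG00000023067, chr17:29090976-29100727) encodes p21, the cyclin-dependent kinase inhibitor through which p53 arrests the cell cycle. Its values were 18.1 and 23.1 CPM in controls and 11.97 and 15.7 CPM in cko replicates 1 and 2. The groups did not overlap, but the highest cko and the lowest control library were close. The log2 fold change was -0.57 (SE 0.19, 95% interval -1.02 to -0.13), with an edgeR adjusted p of 0.232 and a DESeq2 adjusted p of 0.0829, and the log2 fold change was -0.38 without cko replicate 1. The fitted fold was 0.671, with a 95% interval from 0.493 to 0.914. AC167363.2 overlaps 7.68% of its exonic length.

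Gadd45a (ENSMUSG00000036390, chr6:67035096-67037457), a DNA damage sensor of growth arrest and repair, showed the same order. It was at 26.6 and 21.0 CPM in controls and at 19.3 and 17.2 CPM in cko replicates 1 and 2, with a log2 fold change of -0.39 (SE 0.15) and an adjusted p of 0.326. Without control replicate 1 the log2 fold change was -0.21. An opposite-strand gene overlaps 19.1% of its exonic length, so its value is less certain.

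The sestrins lay in the other direction. Sesn1 (ENSMUSG00000038332, chr10:41809935-41908424) and Sesn2 (ENSMUSG00000028893, chr4:132492032-132510501) encode stress proteins that lower mTORC1 activity and protect from oxidants, and Sesn2 also responds to forms of stress that do not act through p53. Sesn1 was measured at 53.7 and 52.4 CPM in controls and at 70.1 and 69.5 CPM in cko replicates 1 and 2. The libraries of a genotype nearly coincided, and the 2 genotypes were well apart. The log2 fold change was 0.39 (SE 0.09, 95% interval 0.17 to 0.61), with the lowest edgeR adjusted p of the 36 genes, 0.110, and a DESeq2 adjusted p of 0.0195. Without cko replicate 1 the log2 fold change was 0.40 with an edgeR adjusted p of 0.213. Sesn2 was at 9.92 and 10.4 CPM in controls and at 13.5 and 12.3 CPM in cko libraries. Its log2 fold change was 0.34 (SE 0.14, 95% interval 0.01 to 0.67), with an adjusted p of 0.361 in edgeR and 0.373 in DESeq2.

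Btg2 (ENSMUSG00000020423, chr1:134075170-134079120), an antiproliferative gene that is also an immediate early gene and marks neurogenic divisions, was at 136 and 139 CPM in controls and at 101 and 140 CPM in cko replicates 1 and 2. Only cko replicate 1 differed, the library with the low immediate early genes, and the part of that in the Btg2 value was not tested. The log2 fold change was -0.19 with all libraries and 0.04 without cko replicate 1. The other targets of the list, the cyclin G gene Ccng1, the RNA-binding tumor suppressor Zmat3 and Gtse1, had overlapping groups and log2 fold changes of -0.05, 0.01 and 0.07.

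Among the p53 targets of cell death, 1 of 7 had an unadjusted p under 0.05, against 13.6% of all tested genes. The median log2 fold change of the 7 was 0.16. The 2 classical BH3-only targets of p53 lay on opposite sides. Pmaip1 (ENSMUSG00000024521), which encodes NOXA, an inhibitor of MCL1, was at 8.11 and 8.005 CPM in controls and at 9.93 and 12.6 CPM in cko replicates 1 and 2. Both cko libraries lay above both controls, with a log2 fold change of 0.48 (SE 0.17, 95% interval 0.08 to 0.89) and an adjusted p of 0.267. Without cko replicate 2 the log2 fold change was 0.30.

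Bbc3 (ENSMUSG00000002083, chr7:16308393-16318205) encodes PUMA, which binds all anti-apoptotic BCL2 proteins and is a main mediator of p53-dependent death in neurons. It was at 16.6 and 13.6 CPM in controls and at 12.6 and 11.7 CPM in cko replicates 1 and 2. The cko libraries lay just below the controls, with a log2 fold change of -0.32 (SE 0.15, 95% interval -0.68 to 0.04) and an adjusted p of 0.448, and a log2 fold change of -0.17 without control replicate 1. Fas (ENSMUSG00000024778, chr19:34290666-34327772), with 8, 3, 12 and 11 reads, had a fitted log2 fold change of 1.05 with a 95% interval from -0.33 to 2.43, so its difference was not detectable at this depth.

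Of the other cell death targets, the exonuclease gene Aen was at 35.0 and 35.9 CPM in controls and at 46.4 and 38.4 CPM in cko replicates 1 and 2, with a log2 fold change of 0.26 and an adjusted p of 0.447, and a log2 fold change of 0.13 without cko replicate 1. Eda2r, an X-linked receptor of the tumor necrosis factor family, Phlda3 and Perp had overlapping groups, with log2 fold changes of -0.10, -0.07 and 0.16. The intervals of Phlda3 and Perp reached from -0.91 to 0.78 and from -0.55 to 0.86, so even sizeable differences could not be seen for these low genes.

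**Figure D3:**
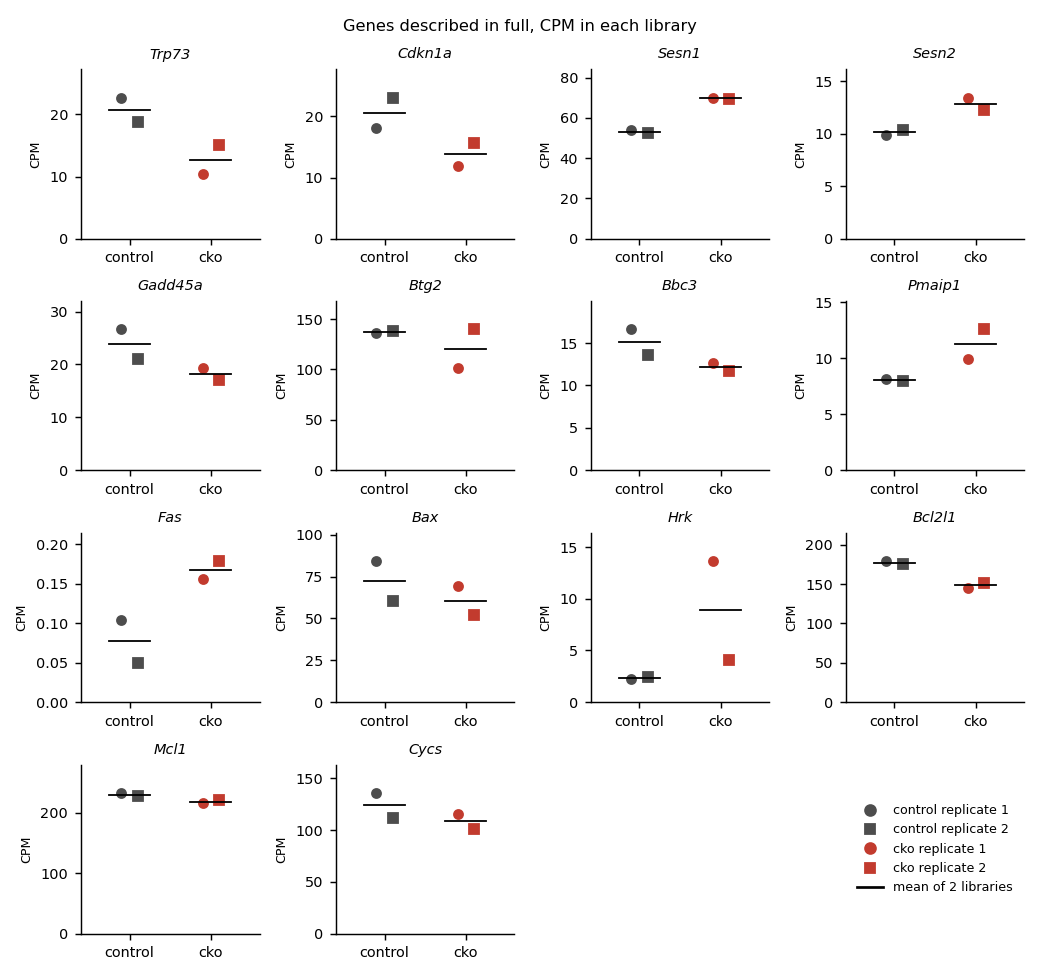
CPM in each library for the 14 genes described with full values, as circles for replicate 1 and squares for replicate 2, grey for control and red for cko, with a line at the mean of each pair. The cko points of Sesn1, Sesn2 and Pmaip1 lie above and those of Trp73, Cdkn1a, Gadd45a and Bcl2l1 below the control points, and the cko points of Hrk lie far apart at 13.7 and 4.08 CPM.

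The pro-apoptotic BCL2 family had a median log2 fold change of -0.01. Against 13.6% of all tested genes, 1 of its 7 genes had an unadjusted p under 0.05. That gene was Hrk (ENSMUSG00000046607, chr5:118164648-118189478), which encodes Harakiri, a BH3-only protein of the nervous system that binds BCL2 and BCL-XL. Its level was 2.27 and 2.47 CPM in controls, from 174 and 149 reads, and 13.7 and 4.08 CPM in cko replicates 1 and 2, from 1055 and 251 reads. Both cko libraries were above the controls, but they differed from each other by more than cko replicate 2 differed from the controls. The log2 fold change was 1.91 (SE 0.63, 95% interval 0.20 to 3.61), the highest of the 36 genes, with an adjusted p of 0.313 in edgeR and 0.202 in DESeq2. Without cko replicate 2 the log2 fold change was 2.53 with an adjusted p of 0.00178, and without cko replicate 1, the library that stood apart, it was 0.79 with an adjusted p of 0.255.

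The effectors and the other BH3-only genes differed little. Bax (ENSMUSG00000003873, chr7:45461697-45466898) was the effector with the highest level among the chosen genes. Bax was at 84.3 and 60.5 CPM in controls and at 69.1 and 52.2 CPM in cko replicates 1 and 2. In both genotypes replicate 1 was higher than replicate 2, and the groups overlapped, with a log2 fold change of -0.26 (SE 0.20) and an adjusted p of 0.698, and a log2 fold change of 0.00 without control replicate 1. Gm45808 overlaps 12.2% of the exonic length of Bax on the same strand, so part of its reads may have been left uncounted. Bak1, the second effector, ranged from 31.6 to 33.2 CPM in controls and from 32.7 to 35.0 CPM in cko libraries, with a log2 fold change of 0.06.

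Bcl2l11, which encodes BIM, the BH3-only protein of trophic factor withdrawal in neurons, was at 37.5 and 39.1 CPM in controls and at 49.1 and 39.8 CPM in cko replicates 1 and 2, with a log2 fold change of 0.22 and an adjusted p of 0.569, and a log2 fold change of 0.07 without cko replicate 1. Bad, whose protein is held inactive by survival kinases, had a log2 fold change of -0.23, Bmf, which encodes a cytoskeleton-bound BH3-only protein, of -0.18, and Bid, which links death receptors to mitochondria, of -0.01. Bmf had the widest spread of the 3, from 23.2 to 40.5 CPM within the controls alone. Opposite-strand genes overlap 25.5% of the exonic length of Bak1, 17.7% of Bid and 20.5% of Bad.

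All 4 anti-apoptotic BCL2 family genes had log2 fold changes under 0, as did 50.1% of all tested genes. Their median was -0.26, and none was called by edgeR or DESeq2. Their summed level was 457 and 440 CPM in controls and 400 and 401 CPM in cko replicates 1 and 2, so the cko libraries lay below both controls. The sum gives most weight to the most abundant genes, Mcl1 and Bcl2l1. Taken singly, 3 of the 4 genes had both cko libraries below both controls, as did 21.2% of all tested genes.

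Bcl2l1 (ENSMUSG00000007659, chr2:152780668-152831728) was at 179 and 175 CPM in controls and at 146 and 152 CPM in cko replicates 1 and 2. BCL-XL, its main product, protects immature neurons from BAX. The 2 genotypes were further apart than the libraries within each, with a log2 fold change of -0.25 (SE 0.09, 95% interval -0.47 to -0.04), an edgeR adjusted p of 0.275 and a DESeq2 adjusted p of 0.188. The means of 177 ± 3.08 CPM in controls and 149 ± 4.36 CPM in cko GCps (SD, n = 2) stood for a fold of 0.839.

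Mcl1 (ENSMUSG00000038612, chr3:95658788-95663176), whose short-lived protein is bound by NOXA, was at 233 and 227 CPM in controls and at 216 and 221 CPM in cko replicates 1 and 2, with a log2 fold change of -0.08 (SE 0.09, 95% interval -0.29 to 0.14) and an adjusted p of 0.813. Bcl2, at 10.8 and 12.1 CPM in controls and 10.2 and 8.80 CPM in cko libraries, had a log2 fold change of -0.27, and Bcl2l2, which encodes BCL-W, of -0.30 with overlapping groups. Same-strand Gm20521 overlaps 13.3% of the exonic length of Bcl2l2.

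Per kb of exon, Mcl1 made up 59.1% of the summed anti-apoptotic level in controls and 62.2% in cko GCps, Bcl2l1 33.9% and 31.5%, Bcl2l2 5.82% and 5.24%, and Bcl2 1.10% and 1.01%. The pro-apoptotic sum held Bax, Bak1, Bcl2l11, Bid, Bad, Bmf and Hrk. It left out Bbc3 and Pmaip1, listed here as p53 targets, and the wider BCL2 family. Bax made up 53.9% and 49.2% of this sum, Bak1 16.1% and 18.2%, and Hrk 0.502% and 1.94%. Even at its cko level, Hrk thus remained a small part of the transcripts in this sum.

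Ratios within a library do not depend on its depth. With the same genes in the sums, the pro-apoptotic over the anti-apoptotic level per kb was 0.819 and 0.666 in controls. It was 0.811 and 0.705 in cko replicates 1 and 2. The ratio of Bax to Bcl2l1 per kb was 1.37 and 1.01 in controls and 1.38 and 1.00 in cko libraries, and that of Bax to Bcl2 was 45.4 and 29.0 in controls and 39.5 and 34.5 in cko libraries. In each of the 3 ratios the libraries of a genotype differed by more than the genotypes, with a two-sided p of 1 in the exact permutation test, before and after adjustment over the 3 ratios. With 2 libraries against 2 this test cannot give a p under 0.333.

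The caspase and apoptosome genes had a median log2 fold change of 0.02, and none of the 6 had an unadjusted p under 0.05. Cycs (ENSMUSG00000063694, chr6:50562563-50566538) was at 136 and 112 CPM in controls and at 116 and 101 CPM in cko replicates 1 and 2, with overlapping groups, a log2 fold change of -0.19 (SE 0.13) and an adjusted p of 0.612. Processed copies of Cycs in the mouse genome may take some of its reads. Casp9, which encodes the initiator caspase of the apoptosome, was at 62.7 and 61.2 CPM in controls and at 41.9 and 61.005 CPM in cko replicates 1 and 2. As for Btg2, only cko replicate 1 was clearly low, and the log2 fold change was -0.27 with an adjusted p of 0.618, and -0.01 without cko replicate 1.

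Apaf1, the scaffold of the apoptosome, ranged from 57.6 to 58.7 CPM in controls and from 58.9 to 61.1 CPM in cko libraries, and had a log2 fold change of 0.05. Casp8, the initiator caspase of death receptors, and Diablo, which relieves caspase inhibition, had log2 fold changes of 0.03 and 0.01. Xiap, the X-linked gene of a direct caspase inhibitor, lay at 91.8 and 94.2 CPM in controls and at 98.2 and 105 CPM in cko replicates 1 and 2, with a log2 fold change of 0.12 (95% interval -0.09 to 0.34) and an adjusted p of 0.656. These intervals rest on 2 libraries a genotype and may not cover the spread between animals. As a fold of cko over control, the 95% interval reached from 0.885 to 1.204 for Apaf1 and from 0.940 to 1.26 for Xiap.

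**Figure D4:**
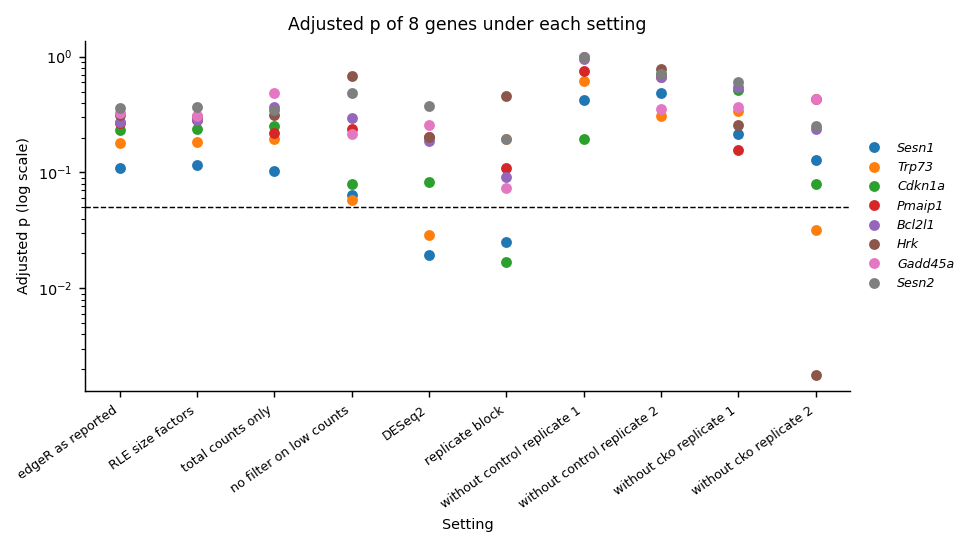
Adjusted p on a log axis of the 8 genes with an unadjusted p under 0.05, under edgeR as reported and 9 other settings, with a dashed line at 0.05. Sesn1 and Trp73 lie under the line in DESeq2, Sesn1 and Cdkn1a with a replicate block, and Trp73 and Hrk without cko replicate 2 (3.66% of all tested genes called), and no gene lies under it in the other 7 settings. The replicate block called 6.15% of all tested genes.

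Wider lists of the pathway gave the same picture of few calls. Among 26 other p53 targets, with a median log2 fold change of 0.09, edgeR called 1, beside 1.58% of all tested genes. This was Plk3 (ENSMUSG00000028680, chr4:117128655-117133963), a stress-responsive polo-like kinase gene that is also an immediate early gene. It was at 42.5 and 42.9 CPM in controls and fell to 23.1 and 27.4 CPM in cko replicates 1 and 2, a log2 fold change of -0.76 (SE 0.12) with an adjusted p of 0.0395. This call depended on most of the libraries, since the adjusted p was 0.0737 without control replicate 1, 0.183 without control replicate 2 and 0.0683 without cko replicate 1. The summed immediate early and dissociation stress genes were low in cko replicate 1 but not in cko replicate 2, at 2987 CPM. Taken singly, all 10 had log2 fold changes under 0, with a median of -0.48, and 4 had both cko libraries below both controls. None of the 10 had an unadjusted p under 0.05 in edgeR, and the part of this difference in the Plk3 value was not tested.

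None of 13 other p53 regulators and DNA damage kinases was called by edgeR, with a median log2 fold change of 0.05. None of 8 tested genes of the wider BCL2 family (12 listed, 10 of them in the files) was called, with a median of -0.10. The same was true of 8 tested of 9 death receptor and adaptor genes, with a median of 0.06, and of 14 other caspases, nucleases and inhibitors of apoptosis, with a median of 0.06. At an unadjusted p under 0.05 these 4 lists held 2 of 13, 2 of 8, 2 of 8 and 1 of 14 genes and the other p53 targets 3 of 26, against 13.6% of all tested genes. DESeq2 called 3 genes over all 5 lists, beside 5.60% of all genes it tested. They were Plk3, Ak1 and Hipk2, a kinase gene that acts on p53.

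Markers of other cell types that a GCp preparation can hold differed in part between the genotypes. The summed level of 7 endothelial markers was 274 and 236 CPM in controls and 364 and 370 CPM in cko replicates 1 and 2, and all 7 were higher at an unadjusted p under 0.05 although edgeR called none and DESeq2 called 5. The 7 skeletal muscle markers summed to 9.07 and 6.03 against 28.5 and 58.3 CPM. All 7 were higher at an unadjusted p under 0.05, and edgeR called 3 of them, Myh3, Tnnt3 and Ckm, while DESeq2 called 7. The 9 microglial markers, which include those of the phagocytes that clear dying cells, summed to 281 and 243 CPM in controls and to 267 and 277 CPM in cko libraries, and none had an unadjusted p under 0.05. Oligodendrocyte lineage markers summed to 362 and 326 against 390 and 409 CPM. Astrocyte and Bergmann glia markers summed to 646 and 737 against 556 and 604 CPM. Purkinje cell and interneuron markers summed to 40.8 and 48.5 against 51.3 and 54.9 CPM, with Pcp2, the defining Purkinje cell gene, at 0.196 CPM or less. The part of these cells in the values of Sesn1, Hrk, Trp73 and the other genes was not tested.

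**Figure D5:**
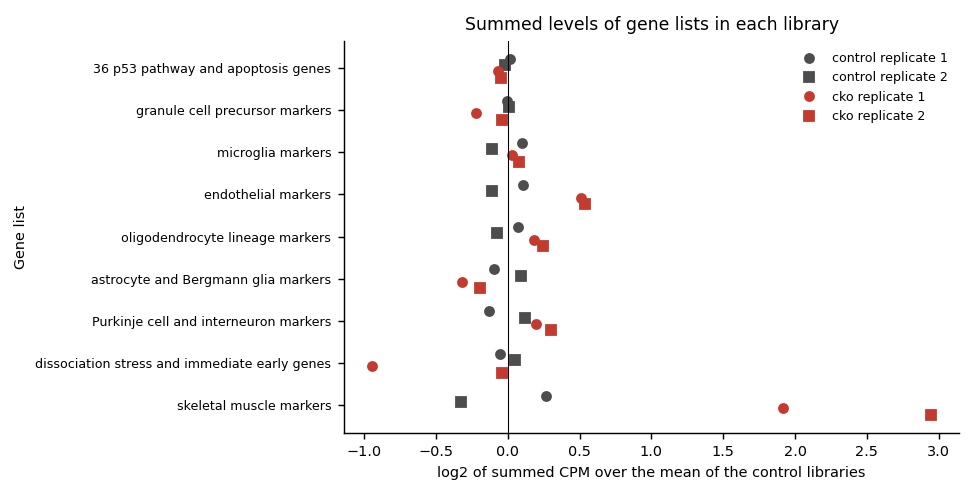
Summed CPM of the 36 genes and of each marker list in each library, as log2 over the mean of the control libraries (control grey, cko red, circles replicate 1, squares replicate 2). The sum of the 36 genes stayed between 1733 and 1845 CPM, while the endothelial and muscle sums lay higher in both cko libraries and the immediate early genes lay low in cko replicate 1.

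Summed over all 36 genes, the level was 1845 and 1795 CPM in controls and 1733 and 1765 CPM in cko replicates 1 and 2. The median half-width of the 95% interval over all tested genes was 0.36 on the log2 scale. Differences under this size could mostly not be resolved with 2 libraries a genotype. These intervals are not adjusted for the number of genes tested, and larger differences, such as -0.57 for Cdkn1a, could also stay uncalled. The largest fitted differences of the 36 genes were those of Hrk, Fas, Trp73, Cdkn1a and Pmaip1. None of these had an adjusted p under 0.05 in edgeR as reported. For 3 of the 36 genes, Sesn1, Sesn2 and Bcl2l1, the log2 fold change stayed within 1.5 times the reported value under all 9 other settings.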

How the data were processed

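RNA-Seq of GCps from 2 control and 2 cko libraries was analysed. The ATAC-Seq and H3K4me1 samples and the authors' own fold changes and p-values were not used here. The authors deposited whole-number read counts per Ensembl gene, without normalization. Per their methods and processing notes TopHat2 2.0.14 aligned reads, trimmed by Trim Galore 0.4.1, to mm10, and HTSeq 0.6.1p1 counted them (intersection-strict, low-quality alignments skipped), which leaves out reads shared by overlapping genes. The authors tested with DESeq2 1.8.1. No source used here gives the strand setting of the counting.

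Genes were filtered with filterByExpr, scaled by TMM and tested with edgeR 4.0.16 (robust quasi-likelihood, R 4.3.3), with Benjamini-Hochberg adjustment over all 16436 genes and a threshold of 0.05. DESeq2 1.42.0 and 8 other settings were alternatives. SE is the log2 fold change divided by the square root of F. Symbols, coordinates and exon lengths come from GENCODE vM21 (GRCm38). The scripts were tested on simulated counts. Intervals and SDs rest on 2 libraries a group.

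The genes and lists were chosen with earlier results of these data known. Full values are given for genes with an unadjusted p under 0.05, the 5 largest differences, the 5 highest control levels per kb, or groups that did not overlap with an absolute log2 fold change of at least 0.3. A gene of the wider lists is not reported here.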

Additional observations from a re-analysis of the deposited data

How the results depend on the processing

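Of all tested genes, 260 were called as reported, 727 without a filter on low counts, 891 by DESeq2, 1010 with a replicate block, and 83 to 602 with 1 library left out, the fewest without control replicate 2. Of the 36 genes, 0 were called as reported, 2 by DESeq2 (Sesn1 and Trp73), 2 with the replicate block (Cdkn1a, adjusted p 0.0169, and Sesn1, 0.0253), and 0 to 2 with 1 library left out. In the wider lists 1 gene was called as reported, 2 without the filter, 3 by DESeq2, 3 with the block and 0 to 1 with 1 library left out. Deviations of libraries with the same replicate number correlated at 0.159, and the labels do not tie the numbers to a shared litter or batch, so the libraries may share only a number.

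For 14 of the 36 genes, none of them called, the difference changed sign in at least 1 setting. With total counts only, Mdm2 had a log2 fold change of 0.0019 and Bid of 0.037, and with DESeq2 Zmat3 had -0.00067. With 1 library left out, the log2 fold change ranged from -0.15 to 0.063 for Mdm2, -0.016 to 0.12 for Mdm4, -0.16 to 0.060 for Ccng1, -0.067 to 0.22 for Gtse1, -0.075 to 0.096 for Zmat3, -0.44 to 0.037 for Btg2, -0.19 to 0.00072 for Eda2r, -0.40 to 0.33 for Phlda3, -0.22 to 0.47 for Perp, -0.47 to 0.0018 for Bax, -0.11 to 0.098 for Bid, -0.53 to 0.28 for Bmf, -0.016 to 0.081 for Casp8 and -0.069 to 0.092 for Diablo. The other 22 genes kept their direction in every setting run. The cause of the larger counts by DESeq2 and with the block was not tested.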
